A study of Mus musculus with 3 samples.

Results

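Nkx2.2 was profiled by chromatin immunoprecipitation and sequencing (ChIP-seq) in cultured mouse oligodendrocyte progenitor cells (OPCs) and in the oligodendrocytes (OLs) derived from them, and the regions described here are those that lie away from any assigned gene and carried more signal in OPCs. They were chosen from the deposited region table by 3 conditions: no assigned gene, no assigned CpG island, and a log2 ratio of OL to OPC average signal of -0.5 or less, computed as log2((OL + 1) / (OPC + 1)). The rule selected 2010 of 37271 regions. They made up 18.9% (exact 95% interval 18.2 to 19.7%) of the 10636 regions without a gene or a CpG island. Of the rest of those regions, 6270 had a log2 ratio of 0.5 or more and 2356 lay between these limits.

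Each state is represented by 1 library, and an input library was not analysed here. The OPC group held dividing progenitors purified with an antibody to PDGFRA, the PDGF receptor, from cortices of C57BL/6 mice at postnatal day 7, and kept in medium with PDGF-AA (10 ng/mL), CNTF (10 ng/mL) and NT-3 (1 ng/mL). The OL group held the same kind of progenitors after PDGF-AA was withdrawn and the thyroid hormone T3 was added at 40 ng/mL for 48 h, which took them out of division. The OL medium also held CNTF (10 ng/mL) and NT-3 (1 ng/mL). The labels name no genetic change in the mice and do not say how many animals were pooled. The cells of both groups came from a single round of isolation and culture, and the same monoclonal Nkx2.2 antibody was used for both libraries.

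Nkx2.2 is a homeodomain transcription factor that acts mainly as a repressor, through corepressors of the Groucho family, and takes part in the step from progenitor to myelin-forming oligodendrocyte. Transcription factors of this kind bind many sites outside promoters, and distal sites can act as enhancers or silencers of genes that lie far away on the chromosome. A distal region does not name its target, so the genes given below are neighbours by position and not targets. No genome of build mm9, on which the coordinates stand, was used here, and the base sequences of the regions are not shown.

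The signal is given on the scale the authors left it, as an average and a highest value per region in each library, and sequencing depth is unknown. Because the average chose the members, its values are a description and no test between the states was run, and with 1 library a state the differences have no replicate check. The OL library had 31780 called regions and the OPC library 14370, and the median log2 ratio over all regions was 0.74 in favour of OL. The members are therefore a minority on the OPC side of a table whose regions mostly lean to OL. A log2 ratio of -0.5 or less was found at 13.8% of all regions and at 14.8% (14.2 to 15.4%) of regions that lay only inside genes and had no CpG island. Among regions called in OPC, the same limit was met by 46.6% (45.1 to 48.1%) of those without a gene or CpG island and by 40.1% (38.8 to 41.5%) of those inside genes. These intervals cover counting error over regions only, and regions are not replicates of a cell state.

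Members were moderate sites in OPCs with little signal in OLs. The OPC average ranged from 2.95 to 53.3 with a median of 5.5 and quartiles of 4.4 and 7.68. In OL the same regions ranged from 0 to 21.8 with a median of 2.08 and quartiles of 1.4 and 3.17. The highest signal within a member had a median of 11 in OPC and 3 in OL, and at 5 members the OL peak was as high as the OPC peak or higher. The median log2 ratio of the averages was -1.08, with quartiles of -1.45 and -0.78.

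**Figure D1:**
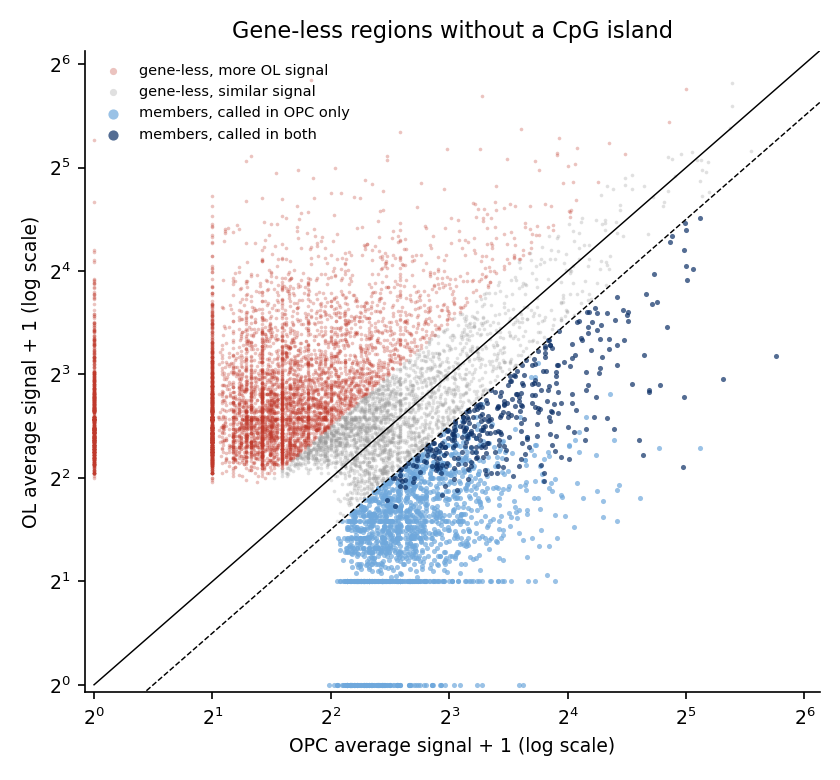
OPC average signal plus 1 (x axis) against OL average signal plus 1 (y axis), both on log scales, for the 10636 regions without an assigned gene or CpG island. The solid line marks equal signal and the dashed line the log2 ratio of -0.5 that bounds the 2010 members, which are drawn in light blue where called in OPC only (1660) and in dark blue where called in both libraries (350).

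Every member carried an OPC call, as did 38.6% of all regions. Of these, 1660 were called in OPC only, a class that holds 14.7% of all regions, and 350 were called in both libraries, against 23.8% of all regions. The mix of calls was not particular to members. Of the 3104 regions with an assigned gene and a ratio of -0.5 or less, 82.6% were called in OPC only and 17.4% in both, against 82.6% and 17.4% of members. Their median OPC average was 5.4 and their median length 528 bp, against 5.5 and 536 bp for members. A ratio of -1 or less was found at 1127 members, against 7.03% of all regions, and one of -2 or less at 218. With the median of all regions set to a log2 ratio of 0, the same limit took in 3527 regions, 2035 called in OPC only and 1278 in both, so the number called in both and the presence of an OPC call at every member rest on the deposited scale. The calls and the ratio come from the same pair of libraries as the rule, so nothing is read from these counts about a difference between the states.

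OL signal was not absent from most members. An OL average of 0 was listed at 150 members, against 320 regions (0.859%) of the whole table and 2.23% of the regions called in OPC, and an average of exactly 1 at a further 234. Every gene-less region without a CpG island listed at 0 or 1 in OL was a member, so the difference from these shares is set by the rule. Of the 3104 regions with an assigned gene and a ratio of -0.5 or less, 169 were listed at 0. The lowest value above 0 was 1 in both libraries, and 3018 regions of the table had exactly 1 in OPC and 513 in OL, so low averages stand on a floor and ratios of weak members follow the pseudocount. The remaining members had OL averages above 1.

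The share of members called in both libraries was higher in bands of higher OPC signal. Of 293 members with an OPC average under 4, 0 were called in OL, which allows a share of up to 1.25% (exact upper limit). Between 4 and 6 there were 866 members, with 2.66% (1.69 to 3.96%) called in both. Between 6 and 10 the share was 26.0% (22.5 to 29.7%) of 589. From 10 to 20 it was 62.9% (56.2 to 69.3%) of 221, and at 20 or more it was 85.4% (70.8 to 94.4%) of 41. The median OL average rose with these bands, at 1.29, 1.82, 3, 5 and 9.09, while the median log2 ratio stayed between -1.04 and -1.23. These shares are a description, since the limit on the ratio caps the OL average and the cap is lower at lower OPC signal. Under an OPC average of 4 the highest OL average of a member was 2.44, and the lowest at a member called in both was 2.32.

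**Figure D2:**
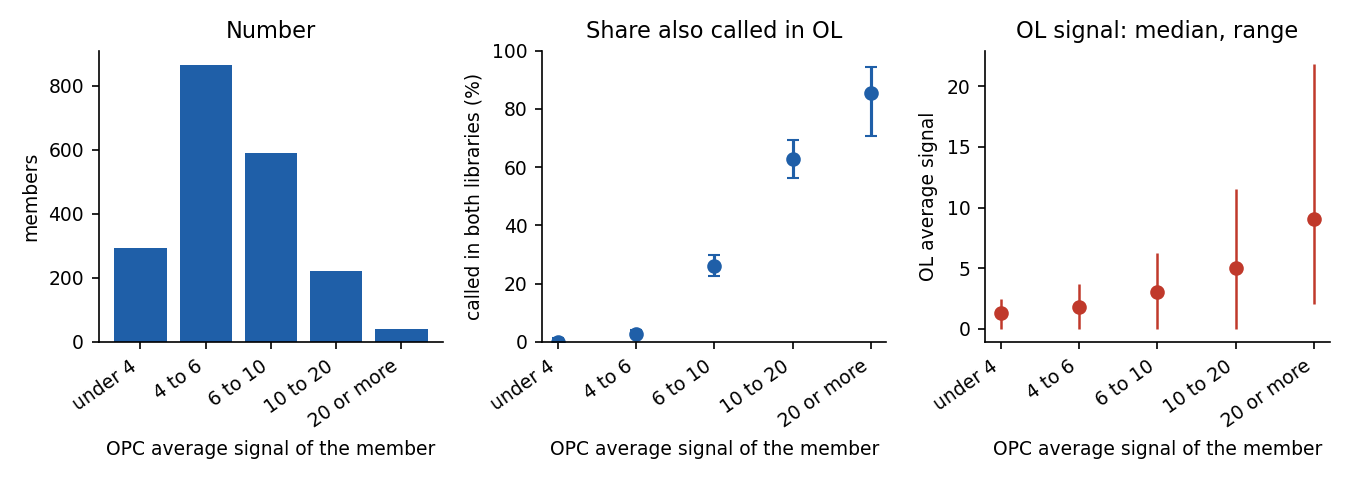
Members grouped by their OPC average signal (x axis of each panel): number of members (left), share called in both libraries with exact 95% intervals (middle), and OL average signal as the median (point) with the lowest and highest value (line, right). The share called in both goes from 0% under 4 to 85.4% at 20 or more.

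The strongest member lay on chromosome 7 in the gap between Mlstd2, a fatty acyl-CoA reductase gene, and Spon1, which encodes the secreted adhesion protein F-spondin (chr7:120781630-120782204). Its average was 53.3 in OPC and 8.08 in OL, with peaks of 168 and 17. It was 125 kb from the start of Mlstd2 and 128 kb from that of Spon1. The second, at chr5:125402997-125403728, had 38.8 in OPC and 6.78 in OL. It lay 60.3 kb from the start of the zinc finger gene Zfp664. Both regions were called in both libraries and stood well below the OPC height in OL.

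A member at chr7:81062234-81063718 had 33.7 in OPC and 21.8 in OL, the highest OL value of the set. Its nearest placed start, 95.6 kb away, was that of St8sia2, a polysialyltransferase gene whose enzyme adds polysialic acid to the adhesion molecule NCAM. A member at chr12:12691701-12692228 had 33.7 and 3.89 and was the one among the 10 strongest without an OL call. At chr4:72045487-72046574 the averages were 31.2 and 14.03, in a span of chromosome 4 that is bounded by the starts of Tle1, 184 kb away, and Frmd3, 1614 kb away. Tle1 encodes a Groucho corepressor of the family that Nkx2.2 recruits.

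A member 172 kb from the start of Wif1, a secreted inhibitor of Wnt ligands, had 31.0 in OPC and 15.5 in OL (chr10:120642930-120643823). The one near Dpy19l1 had 30.9 and 20.0 and lay 54.3 kb from that gene's start. The remaining strong members were nearest to Mrps28, a mitochondrial ribosomal protein gene (32.4 and 15.3, 613 kb away), Kbtbd8 (30.7 and 17.4, 83.9 kb) and Lrrc4c, which encodes a netrin-G ligand (30.8 and 21.1, 1196 kb). Of the 100 strongest members, 76 were called in both libraries, against 17.4% of all members. A log2 ratio of -1 or less was found at 64 of them, against 56.1% of all members, and an OL average of 10 or more at 30. The set holds 41 of the 191 regions of the whole table with an OPC average of 20 or more, and 2010 of the 14370 regions called in OPC. Of the 191, 76 were gene-less.

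The member near Lrrc4c belonged to a packed group of 4 regions within about 5 kb on chromosome 2, all without an assigned gene. The other regions of the group had OPC averages of 33.7, 11.3 and 27.2 and OL averages of 28.2, 10.4 and 24.5, high in both libraries and with log2 ratios between -0.25 and -0.11. The member had the lowest ratio of this group and lay just past the limit of the rule, at -0.53. The input was not analysed here, so whether these regions also carry signal without the antibody was not tested.

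The members with the lowest ratios had OPC averages of 8.39 to 33.7 and OL averages of 0 to 3.89. They were taken among the 895 members whose mean over both libraries lay above the median of all regions. At chr1:57399279-57399731 the average was 11.3 in OPC and was listed at 0 in OL, with the nearest placed start, 1700066M21Rik, 34.96 kb away. At chr11:111679292-111680047 it was 11.0 and listed at 0, in a gap whose placed starts were Kcnj2, an inward rectifier potassium channel gene, 752 kb to one side, and EG667038, 708 kb to the other. These were the members listed at 0 in OL with an OPC average of 10 or more.

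Others of this set combined a strong OPC signal with a weak OL one. A member 75.9 kb from the start of Rhou, a small GTPase gene, had 30.5 in OPC and 3.30 in OL and was called in both libraries (chr8:126253423-126254078). A member 27.4 kb from Snx6, a sorting nexin gene, had 20.3 and 2 (chr12:55923799-55924311). One between Ube2e3, a ubiquitin-conjugating enzyme gene, and Itga4, an integrin gene, had 23.4 and 2.5 (chr2:78871041-78871583). The last was 162 kb from the first gene and 224 kb from the second, and like the member near Snx6 it was called in OPC only.

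A member 348 kb from Tspan13, a tetraspanin gene, had 8.39 in OPC, and one 13.5 kb from 4930485B16Rik had 8.67. Neither had OL signal above the listed 0. A member 103 kb from Hsd17b3, a steroid dehydrogenase gene, had 13.2 in OPC and 1.09 in OL. A member 476 kb from LOC432471 had 13.8 and 1.

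At the limit of the rule the values were ordinary. The members just inside it had OPC averages of 4.16, 4.29 and 4.27 with OL averages of 2.65, 2.74 and 2.73, nearest to Psma1, a proteasome subunit gene, to Btd, the biotinidase gene, and to Gm414. Just outside lay regions with 6.07, 5.6 and 4 in OPC and 4, 3.67 and 2.54 in OL. All 6 were called in OPC only, so the limit cuts through a continuous range.

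Members were short. Their median length was 536 bp (interval of the median 525 to 548), with quartiles of 428 and 704 and a range of 213 to 1904 bp. Members called in both libraries had a median of 801 bp and those called in OPC only 499 bp, and each of the former merges at least 2 called intervals, which lengthens them by construction. Among single-interval regions whose own library's average was between 5 and 7, the median length was 525 bp (508 to 540) for members and 521 bp (510 to 535) for gene-less regions with more OL signal. The highest signal divided by the average, a measure of how pointed a region is, was 1.99 (1.93 to 2.05) for the former and 2.02 (2.00 to 2.04) for the latter. The intervals overlapped in both measures at this signal, and also between 7 and 10, where lengths were 591 bp in each set. Between 10 and 20 the median lengths lay further apart, at 597.5 bp (558 to 671) for 82 members and 664.5 bp (642 to 688) for 476 regions with more OL signal. Their intervals still overlapped. The longest member, chr12:100908769-100910673 with 1904 bp, had 6.02 in OPC and 3.65 in OL. The next, 1721 bp long, lay between LOC100043248, 52.0 kb away, and Dock1, a gene for an activator of Rac, 120 kb away, with 4.55 and 2.45.

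Members were far from known starts. Gene starts were placed from the table's own distances for 12957 of its 14473 gene names, so a gene without a region is not seen and true distances can be shorter. The median distance from a member to the nearest placed start was 150 kb (138 to 159), with quartiles of 60.3 and 320 kb. For gene-less regions with more OL signal it was 129 kb (124 to 134) and for those of similar signal 112 kb (105 to 120). Being 10 kb or more from a start is set by the absence of a gene, and the closest member was 10.2 kb away. Beyond 100 kb lay 62.2% (60.0 to 64.3%) of members, 58.2% (57.0 to 59.4%) of regions with more OL signal and 53.5% (51.4 to 55.5%) of those of similar signal. Beyond 500 kb the shares were 12.8%, 13.4% and 11.6%, with overlapping intervals for members and regions with more OL signal. Calls differ between these sets along with the ratio. Of all gene-less regions called in OPC, members had a median of 150 kb and the others 119 kb (111 to 126).

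The most remote members, picked after their values were seen, stood in wide gaps between placed starts. The farthest was 2354 kb from the start of Pcdh9, a protocadherin gene, and 3063 kb from that of Pcdh20, with 7.27 in OPC and 3.23 in OL (chr14:91934064-91934558). A member on the X chromosome, 1908 kb from Fgf13, a fibroblast growth factor homologous factor gene, had 8.43 and 1 (chrX:58295394-58295627). A member between Cobl, an actin nucleator gene, and Vstm2 had 7.4 and 1. Gaps of this size can hold genes that the table does not name.

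Members were spread over all 20 chromosomes in proportion to the gene-less regions there. Their share of those regions ran from 14.7% on chromosome 19 to 21.3% on chromosome 15 among autosomes and was 20.1% (14.9 to 26.1%) on X. The exact interval of 0 chromosomes excluded the overall 18.9%. The median log2 ratio of the members of a chromosome lay between -1.26 and -0.96.

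**Figure D3:**
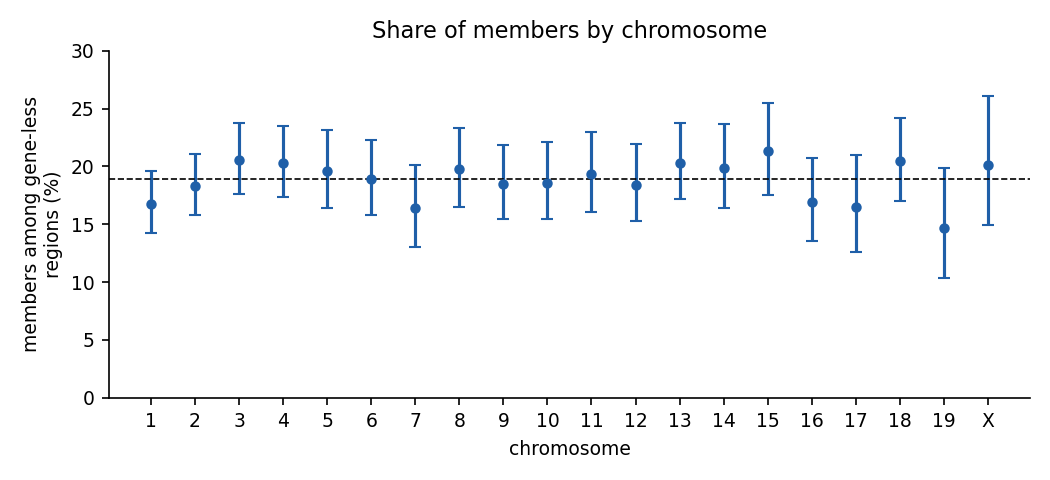
Share of regions without a gene or CpG island that were members (y axis, percent), by chromosome (x axis), with exact 95% intervals and the overall 18.9% as a dashed line. Every interval includes the dashed line.

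Members lay near other members more often than the other gene-less regions did. The nearest region of any kind was another member for 21.2% (19.4 to 23.0%) of members, for 15.4% (13.9 to 16.9%) of gene-less regions of similar signal and for 12.5% (11.7 to 13.3%) of those with more OL signal. When that nearest region was within 2 kb, it was a member in 38.1% (31.3 to 45.4%), 21.7% (16.5 to 27.6%) and 12.5% (9.78 to 15.6%) of cases in the same order. Members nearest to each other are counted from both ends, so the intervals around members treat linked cases as separate and can be too narrow. At 2 to 10 kb the share around members was 25.7%, at 10 to 50 kb 18.9% and at 50 kb or more 15.0% (12 to 18.5%), where it overlapped that of similar regions, 14.9%. Around members the nearest region was still one with more OL signal in 38.1% of cases. Nearness of like to like was not particular to members. Around gene-less regions with more OL signal, the nearest region was another of that set in 47.8% (46.5 to 49.0%) of cases. The share was 42.3% (40.3 to 44.3%) around regions of similar signal. Within 2 kb these shares were 62.9% and 49.1%, against 33.0% around members.

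**Figure D4:**
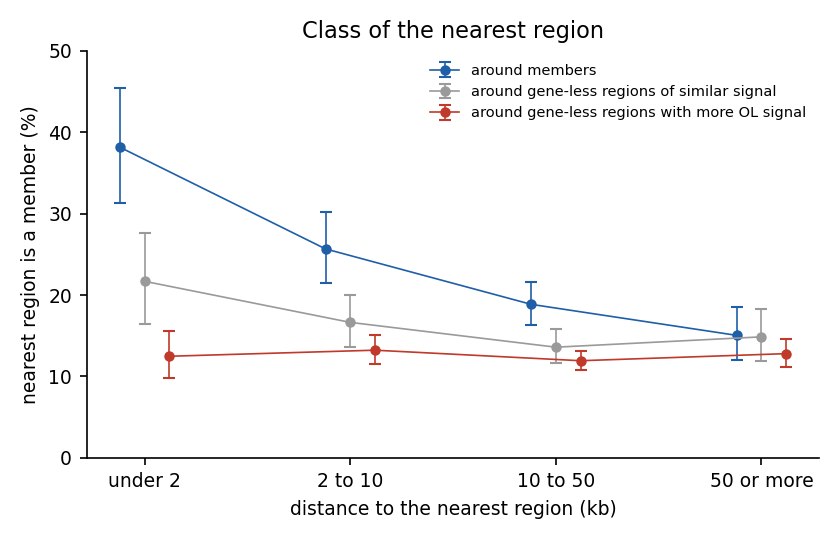
Share of regions whose nearest region is a member (y axis, percent), by distance to that nearest region (x axis, kb), around members, around gene-less regions of similar signal and around those with more OL signal, with exact 95% intervals. Around members the share goes from 38.1% under 2 kb to 15.0% at 50 kb or more, and around regions with more OL signal it stays between 11.9% and 13.2%.

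Regions with an assigned gene, which the rule did not take in, had a lower median ratio close to members than close to regions with more OL signal. Within 20 kb of a member lay 211 of them, with a median log2 ratio of 0.40 (0.25 to 0.53), and 22.3% (16.8 to 28.5%) had a ratio of -0.5 or less. Around gene-less regions with more OL signal the median was 0.76 (0.71 to 0.82) and the share 9.14% (7.14 to 11.5%), and over all gene-assigned regions they were 0.74 and 11.8%. Around gene-less regions of similar signal the median was 0.58 (0.48 to 0.70), which overlapped the interval around members, and the share was 9.78% (6.90 to 13.3%). Within 100 kb of a member the share was 15.0% (13.6 to 16.5%) and the median 0.63. These values come from the same libraries as the rule and were not tested.

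Some members formed small runs. Their share in runs was close to that of regions of similar signal and below that of regions with more OL signal. With neighbours up to 50 kb apart joined, 531 members (26.4%) stood in 235 runs, 48 of them with 3 members or more and 8 with 4 or more. The share in runs was 28.5% (26.7 to 30.4%) for gene-less regions of similar signal and 49.5% (48.2 to 50.7%) for the more numerous regions with more OL signal, and the largest run of each held 9 regions. With neighbours up to 10 kb apart, 199 members (9.90%, 8.63 to 11.3%) stood in 96 runs of at most 3. At this distance the share was 9.13% (7.99 to 10.4%) for regions of similar signal and 18.9% for those with more OL signal. The sets differ in size, and a larger set has more neighbours to join, so the shares are not like for like. The 3 largest runs are shown in full.

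A run at chr6:51976723-52044692 held 6 members and 1 further region within 68.0 kb, beside Skap2, which encodes a Src kinase-associated adaptor, on the side away from that gene's body. The next placed start beyond it, 166 kb away, was Hoxa13, a homeobox gene of the HoxA cluster. From the Skap2 side the members had OPC averages of 3.85, 6.79, 3.94, 3.14, 3.75 and 8.62 and OL averages of 1.83, 4.5, 1, 1, 1.67 and 2.29. All were called in OPC only. The region among them that is no member was called in both libraries, with 5.2 in OPC and 7.38 in OL. Most regions assigned to Skap2 leaned the other way, such as one with 2.92 in OPC and 19.1 in OL, and the 5 regions within 100 kb outside the run had a median log2 ratio of 0.43.

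A run at chr6:54003584-54102268 held 5 members and no other region in 98.7 kb, between Cpvl, a carboxypeptidase gene, and Chn2, which encodes a Rac GTPase-activating protein. Its OPC averages were 3.67, 3.71, 5.36, 7 and 5.75, and in OL 2 of them were listed at 0 and the others had 1, 3.36 and 2.5. On the Chn2 side the next regions had 1.67 in OPC and 17.5 in OL and then 2.42 and 12.8. The 10 regions within 100 kb outside the run had a median log2 ratio of 0.88. Among them, 2 regions assigned to Cpvl leaned to OPC, with 3.85 in OPC and a listed 0 in OL, and with 5.27 and 1.

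The third run, 6 members within 34.5 kb, held the first regions of chromosome 9 in the table (chr9:2999895-3034362). This stretch stood apart from the rest of the table. It held 16 regions in its first 40 kb, all without an assigned gene and all called in OPC, and 5 were called in OL. OPC averages there ran from 5.24 to 41.0 and OL averages from 3.18 to 47.5, and the log2 ratios from -1.58 to 0.56, so members stood among regions of similar signal. The input signal of this stretch was not examined, and whether its ChIP signal reflects Nkx2.2 binding was not tested. Without this stretch, an alternative chosen after seeing the data, the set had 2004 members, and the nearest region was another member for 21.2% of them.

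**Figure D5:**
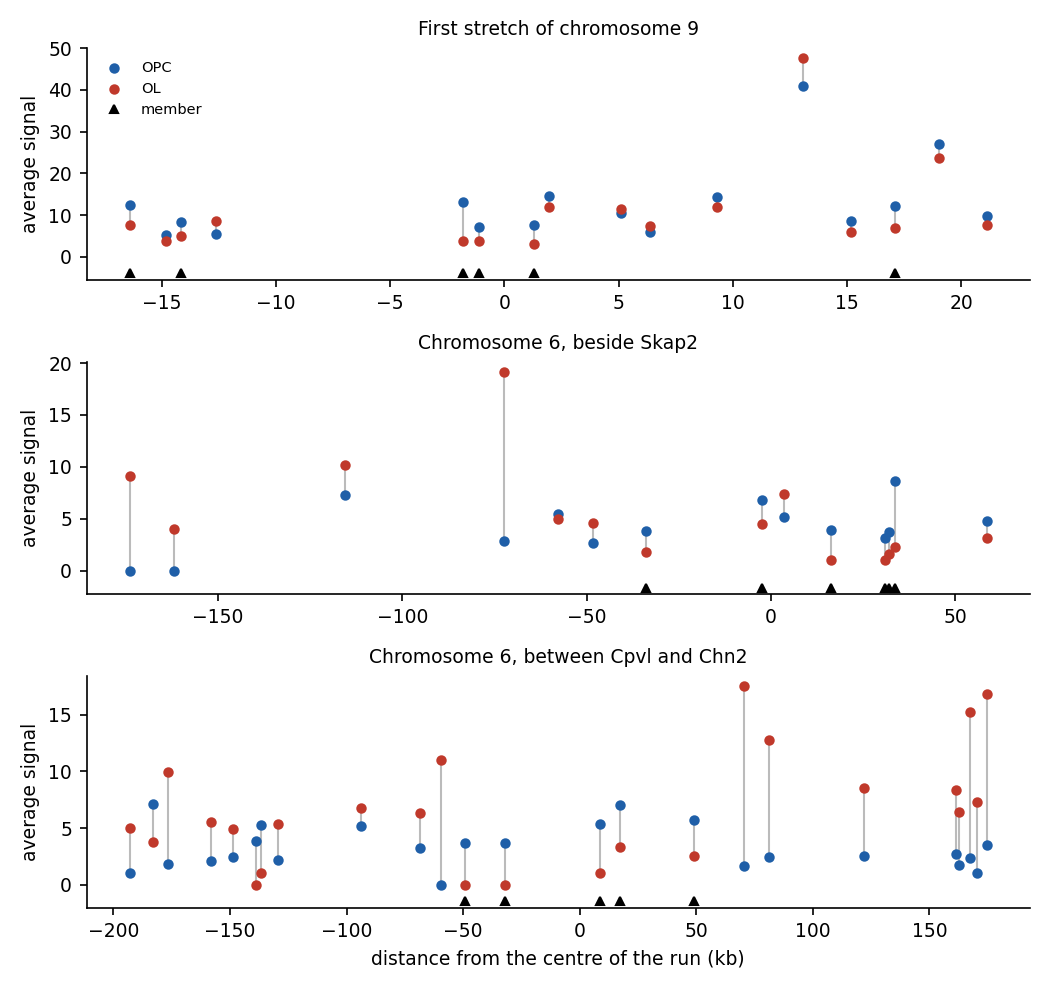
Average signal in OPC (blue) and OL (red) of every region in and around the 3 largest runs of members, by distance from the centre of the run (x axis, kb), with members marked by triangles. In both runs on chromosome 6 the OPC points lie above the OL points at the members, as the rule requires, and mostly below them outside, while on chromosome 9 both libraries reach their highest value at the same region (41 in OPC and 47.5 in OL).

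Genes of 12 lists, covering the oligodendrocyte lineage, other brain cell types, developmental genes and signalling pathways, were looked up beside the members. Of these 267 genes, 191 had a placed start and 148 had a gene-less region within 250 kb. The nearest such region was a member for 32 of these (21.6%), against 17.0% (16.2 to 17.8%) of all 8477 placed genes with one. Of the 32, 23 were also the nearest placed gene of that member. The counts by list are small and their intervals wide: 6 of 18 OPC markers (33.3%, 13.3 to 59.0%), 7 of 26 lineage transcription factors (26.9%), 3 of 15 genes of newly formed oligodendrocytes (20.0%) and 2 of 15 myelin genes (13.3%). Each interval computed for a list included the share over all placed genes.

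Among OPC genes, a member lay 21.0 kb downstream of the start of Olig2, the basic helix-loop-helix factor that specifies the lineage (chr16:91246374-91247187). It had 7.83 in OPC and 5.22 in OL, was called in both libraries and passed the limit narrowly with a log2 ratio of -0.51. Upstream of Id2, which encodes an inhibitor of such factors and holds back differentiation, a member at 28.7 kb had 3.67 and 1. Both lay well below the strongest members given above. Over all members the OPC quartiles were 4.4 and 7.68, so the Olig2 member stood just above the upper quartile and the Id2 member below the lower.

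The member nearest to Cspg4, the gene of the NG2 proteoglycan that marks OPCs, was 34.7 kb upstream of its start with 6.17 in OPC and 3.03 in OL, but the start of Odf3l1 was nearer to it. Lnx1, a ubiquitin ligase gene, had a member 38.5 kb upstream with 5.83 and 2.42. Sox9, a factor of the SoxE family needed for glial specification, had one 42.2 kb downstream of its start with 4.09 and 1. The nearest gene-less region of Sox6 and of Nkx6-2 was a member as well, at 190 kb and 242 kb, with other starts nearer to it. Of the 6 members at OPC markers, 4 lay within 40 kb of the start and 5 were called in OPC only, a share near the 82.6% of all members.

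In the lists of newly formed oligodendrocyte and myelin genes, 3 of 15 and 2 of 15 genes had a member nearest. These shares, 20.0% and 13.3%, lay near the 17.0% of all placed genes. Upstream of Tmem2, which encodes a cell surface hyaluronidase, a member at 36.0 kb had 13.4 in OPC and 4.85 in OL (chr19:21816219-21817445). Upstream of Cnksr3, a gene for a scaffold protein, a member at 53.2 kb had 8.93 and 1.58. Plekhb1, a myelin-associated gene, had one 20.8 kb upstream with 8.93 and 3.73. A member 51.6 kb upstream of Tnfaip6, a hyaluronan-binding protein gene, had 9.92 and 3.17, and the start of Nmi was nearer to it.

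Of the genes in the signalling pathway lists, a few had a strong member nearest and several a weaker one. The strongest in the hedgehog list was 49.2 kb upstream of Cdon, a hedgehog coreceptor gene, with 20.0 in OPC and 4.54 in OL (chr9:35210062-35210835). Gas1, another coreceptor gene, had one 43.6 kb downstream of its start with 11.2 and 4.79. Both were called in both libraries, and they made 2 of 7 hedgehog genes with a gene-less region in range (28.6%, 3.67 to 71.0%). This interval included the 17.0% of all placed genes.

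In the Wnt list the count was 6 of 20 (30%, 11.9 to 54.3%), an interval that included the 17.0% of all placed genes. Apart from the one at Wif1, given above, these members had OPC averages of 3.75 to 5.67, against a median of 5.5 over all members. They lay at the receptor genes Fzd1 (5.67 in OPC and 1 in OL, 32.5 kb upstream), Fzd9 (4.2 and 2.11, 21.0 kb upstream) and Fzd5 (3.75 and 1.21, with the start of Ccnyl1 nearer). Others lay at the ligand gene Wnt7b (4.5 and 2.75, 19.0 kb upstream) and at Lef1, a transcription factor of the pathway (4.06 and 1, 55.8 kb upstream). In the Notch list 2 of 15 genes had one (13.3%, 1.66 to 40.5%), near the share over all placed genes. They were the coactivator genes Maml2 (3.85 in OPC and listed at 0 in OL, 26.6 kb upstream) and Maml3 (4.67 and 2.43, 33.6 kb upstream). A gene's nearest gene-less region is one of several around it and the other regions can lean to OL.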

How the data were processed

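Per the submitters' processing notes, BWA, MACS 1.4.2 and build mm9 were used. The sources used here do not give the calling threshold, the role of the input or any scaling of one library to the other. Per the file headers, the authors joined the intervals called in each ChIP library into regions and deposited an average and a highest signal per region and library, with calls per library and counts of assigned genes, promoters and CpG islands. Calls were not made on pooled libraries. Whether starts count from 0 or 1 is not stated.

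From this deposited signal, log2((OL + 1) / (OPC + 1)) was computed with no filter on low values. Gene starts were placed from the region's middle and the deposited distance. The strand came from 2 or more regions of the gene that agreed within 2 bp (8016 genes), or from the RefSeq promoter table of GRCm38.p6 (4306 genes). A further 635 genes within 1000 bp of their only region were put at it, and 1516 were not placed. Where RefSeq gave a strand for a gene placed by its regions, it was the same for 4584 of 4597. Distances run between region middles. These functions were tested on simulated data.

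Regions named are the 10 highest in OPC, the 10 lowest ratios above the median mean signal, those listed at 0 in OL with 10 or more in OPC, the 5 longest, the 3 largest runs and those at the limit. The 5 farthest from a start were added after the data were seen. Genes named are the nearest placed genes of these and list genes whose nearest gene-less region within 250 kb is a member, and the gene across a gap was added after the values were seen. Some genes that the rule names are not reported here. Members and lists were chosen with earlier results of these data known. Shares carry exact Clopper-Pearson 95% intervals, medians binomial intervals from order statistics. With 1 library per state no test was run. Python 3.11.15, pandas 2.3.3, SciPy 1.17.1 and matplotlib 3.10.9 were used.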

Additional observations from a re-analysis of the deposited data

How the results depend on the processing

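No paired analysis was possible because each state has 1 library, and no replicate could be left out. The size of the set follows the scale. With the median of regions called in both set to 0 (a shift of 0.24), 584 members were called in both, 802 stood within 50 kb of another, the median log2 ratio was -1.17 and the median length 549 bp. With the median of all regions set to 0 (a shift of 0.74), there were 3527 members, of which the 2010 made up 57.0%, with 1278 called in both, 1356 within 50 kb of another, medians of -1.37 and 569 bp, and a distance to the nearest start of 132.9 kb. Pseudocounts of 0.5 and 2 gave median ratios of -1.19 and -0.92. A pseudocount of 5 gave 1256 members, 1055 in OPC only and 201 in both, 232 within 50 kb and a median of -0.71. With an OPC average of 5 or more there were 1222 members, 876 in OPC only and 249 within 50 kb, with medians of -1.11 and 618.5 bp. Above the median mean signal there were 895, 554 in OPC only and 152 within 50 kb, with medians of -0.99 and 668 bp and 1.34% on X in place of 2.14%. A ratio of -1 or less left 1127, 1028 in OPC only, 99 in both and 213 within 50 kb, with medians of -1.40 and 512 bp. Peak signal gave a median of -1.42 and 2218 members, 1908 of them the same regions. Single-interval regions included 0 called in both, by construction, with medians of -1.14 and 499 bp. With starts placed by 2 or more regions only, an alternative chosen after seeing the data, the median distance was 196 kb. Allowing CpG islands gave 2038 members. The cause of these shifts was not tested beyond what each setting leaves out. Depth is unknown, so how weak a site each library could show cannot be given.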

Other observations

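Members were also counted in the gaps between neighbouring placed gene starts, and the 6 gaps with 9 members or more were picked after the values were seen. Between Csnk1g3, a casein kinase gene, and Zfp608, a zinc finger gene, 11 of 21 gene-less regions were members and 5 leaned to OL. Between Pde10a, a phosphodiesterase gene, and Qk, which encodes the RNA-binding protein quaking that is needed for myelination, 11 of 32 were members and 10 leaned to OL. Between Cyp2j9, a cytochrome P450 gene, and Nfia, a transcription factor gene that acts in gliogenesis, the counts were 10 and 6 of 20. Between A730092B10 and Dtwd2 they were 9 and 9 of 23, and between Zeb2, a repressor gene that promotes myelination, and Acvr2a, an activin receptor gene, 9 and 11 of 26. Between the cell adhesion genes Igsf11 and Lsamp 9 of 46 (19.6%) were members, near the 18.9% over all gene-less regions, and 30 leaned to OL.

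Genes of other brain cell types were looked up in the same way. The nearest gene-less region was a member for 4 of 12 astrocyte genes with one within 250 kb (33.3%, exact interval 9.92 to 65.1%). For neuronal genes the count was 1 of 9 (11.1%, 0.281 to 48.2%). Both intervals included the 17.0% of all placed genes. The strongest of these members was 15.5 kb upstream of Aldh1l1, a folate enzyme gene that marks astrocytes, with 11.6 in OPC and 2.14 in OL. A member 27.8 kb upstream of Slc1a3, a glutamate transporter gene, had 4.93 and 2.44. Of the microglial genes 2 had a gene-less region in range and of the vascular genes 3, and a member was nearest for 0 of them. In the list of developmental genes of gene deserts, 5 of 25 had a member nearest (20.0%, 6.83 to 40.7%), near the 17.0% of all placed genes. Among them were Etv1, an ETS factor gene (7.35 in OPC and 2.5 in OL, 149 kb from its start), Meis1, a homeobox gene (4.67 and 1), and Pou3f2, a POU factor gene (6 and 3.89).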
